A study of Mus musculus with 32 samples.

Results

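The 7 long noncoding RNA (lncRNA) genes described here, Hotairm1, Hottip, Hoxa11os, Hotair, Hoxb3os, Hoxb5os and Haglr, lie within or beside the 4 mouse Hox clusters and were measured in embryonic kidneys that expressed a tumor mutant of ENL. They were taken by name and Ensembl identifier from a list of lncRNAs of these clusters. Their measured levels did not enter the rule, but earlier results of these data were known when the list was chosen. They make up 7 of the 54417 genes found in all 4 count tables of the series. Hox genes encode transcription factors that give cells their position along the body axis, and the posterior Hox genes of the 11 group are needed for the kidney to form. Antisense and intergenic transcripts run between the coding genes of each cluster, and some of them are known to bind the protein complexes that write or remove histone marks on Hox chromatin. ENL, encoded by Mllt1, reads acetylated histones through its YEATS domain and brings the transcription elongation machinery to its target genes, among them the Hox genes.

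The 32 RNA-seq libraries came from 11 groups of mice in the C57BL/6J background. Every embryo, controls included, carried a Cre allele. Six2-TGCtg/+ is a bacterial artificial chromosome transgene with GFP-Cre under Six2 control, which acts in nephron progenitors and is reported to cause Six3 expression there, and Foxd1GC/+ is a GFP-Cre knock-in that disrupts 1 copy of Foxd1 and acts in the stromal lineage. Controls (ENL-WT) were Six2-TGCtg/+;Enl+/+ or Foxd1GC/+;Enl+/+, and mutants carried 1 conditional knock-in allele, the insertion allele EnlT1/+ (ENL-T1) or the small deletion allele EnlT3/+ (ENL-T3). Whole E18.5 kidneys gave 2 libraries for each Six2 genotype (ENL-WT, ENL-T1, ENL-T3), and 3 each of Foxd1-ENL-WT and Foxd1-ENL-T1. Sorted cells positive for tdTomato (tdT+), from embryos that also carried the LSL-tdT reporter, gave 3 libraries each of Six2-ENL-WT and Six2-ENL-T1 at E14.5 and at E18.5, and 4 each of Foxd1-ENL-WT and Foxd1-ENL-T1 at E18.5. The tdT+ cells are the descendants of cells in which Cre acted, not a single cell type.

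The libraries held 67137194 to 157266455 counts, apart from the 8 libraries of sorted Foxd1 tdT+ cells, which held 2557443 to 3508381. One count was therefore worth far more in those 8 libraries, and 4 of the 7 lncRNAs were too low there to be tested. Mllt1 itself, which the knock-in alleles still transcribe, passed the thresholds in none of the 7 genotype comparisons, with log2 fold changes from -0.33 to -0.02, so its total level does not check the genotype labels. The marker lists moved with the genotype. In sorted Six2 tdT+ cells at E18.5 the summed level of 6 differentiated nephron markers was 2539 to 3021 CPM (read counts scaled by the size of each library) in ENL-WT and 155 to 216 CPM in ENL-T1. In the same libraries 6 nephron progenitor markers went from 447–584 to 188–243 CPM, 6 stromal markers from 268–503 to 744–863 CPM, 5 macrophage markers from 16.7–21.8 to 47.7–60.2 CPM, and 5 red cell markers from 99.7–201 to 1475–2175 CPM. Among the stromal markers 4 rose, led by Col1a1 (log2 1.41) and Pdgfra (1.40), while Foxd1, the stromal progenitor marker, fell (log2 -1.93, adjusted p = 2.87e-08, edgeR). Each marker of these 5 lists had at least 1 count in both groups. These are bulk measurements, so a change in the share of a cell type and a change in RNA per cell cannot be told apart in any result below, and the part of these shifts in the lncRNA levels was not tested.

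The position of each lncRNA matters for how it was counted, because reads were counted without strand. In the GENCODE annotation of GRCm38, which is the mm10 genome, Hoxb5os (ENSMUSG00000085645, chr11:96291024-96306910, minus strand) spans the bodies of Hoxb6 and Hoxb5, with 100 of its 696 exon bases inside an exon of Hoxb5. Hoxa11os (ENSMUSG00000086427, chr6:52244393-52249799, plus strand) runs opposite to Hoxa11 and shares 800 of its 3073 exon bases with it. Counting genes of any type, 47.6% of the Hoxa11os exon bases are shared. Hoxb3os (ENSMUSG00000084844, chr11:96343072-96354691, minus strand) shares the most, 2250 bases with Hoxb3 and 953 with Hoxb2, or 76.2% of its 4201 exon bases. Hotairm1 (ENSMUSG00000087658, chr6:52156902-52162119, plus strand) lies beside Hoxa2, and 43.1% of its 1025 exon bases are shared with other genes. Haglr (ENSMUSG00000075277, chr2:74748422-74762896, minus strand) shares 21 of 3021 exon bases with Hoxd3, and 9.30% of them with genes of any type. Hottip (ENSMUSG00000055408, chr6:52262775-52267603, plus strand, 2879 exon bases), at the 5′ tip of the Hoxa cluster, and Hotair (ENSMUSG00000086903, chr15:102944062-102947730, minus strand, 2006 exon bases), between Hoxc12 and Hoxc11, share no exon base with a Hox coding gene. Short noncoding genes share 25.3% of the exon bases of Hottip and 8.3% of those of Hotair.

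**Figure D1:**
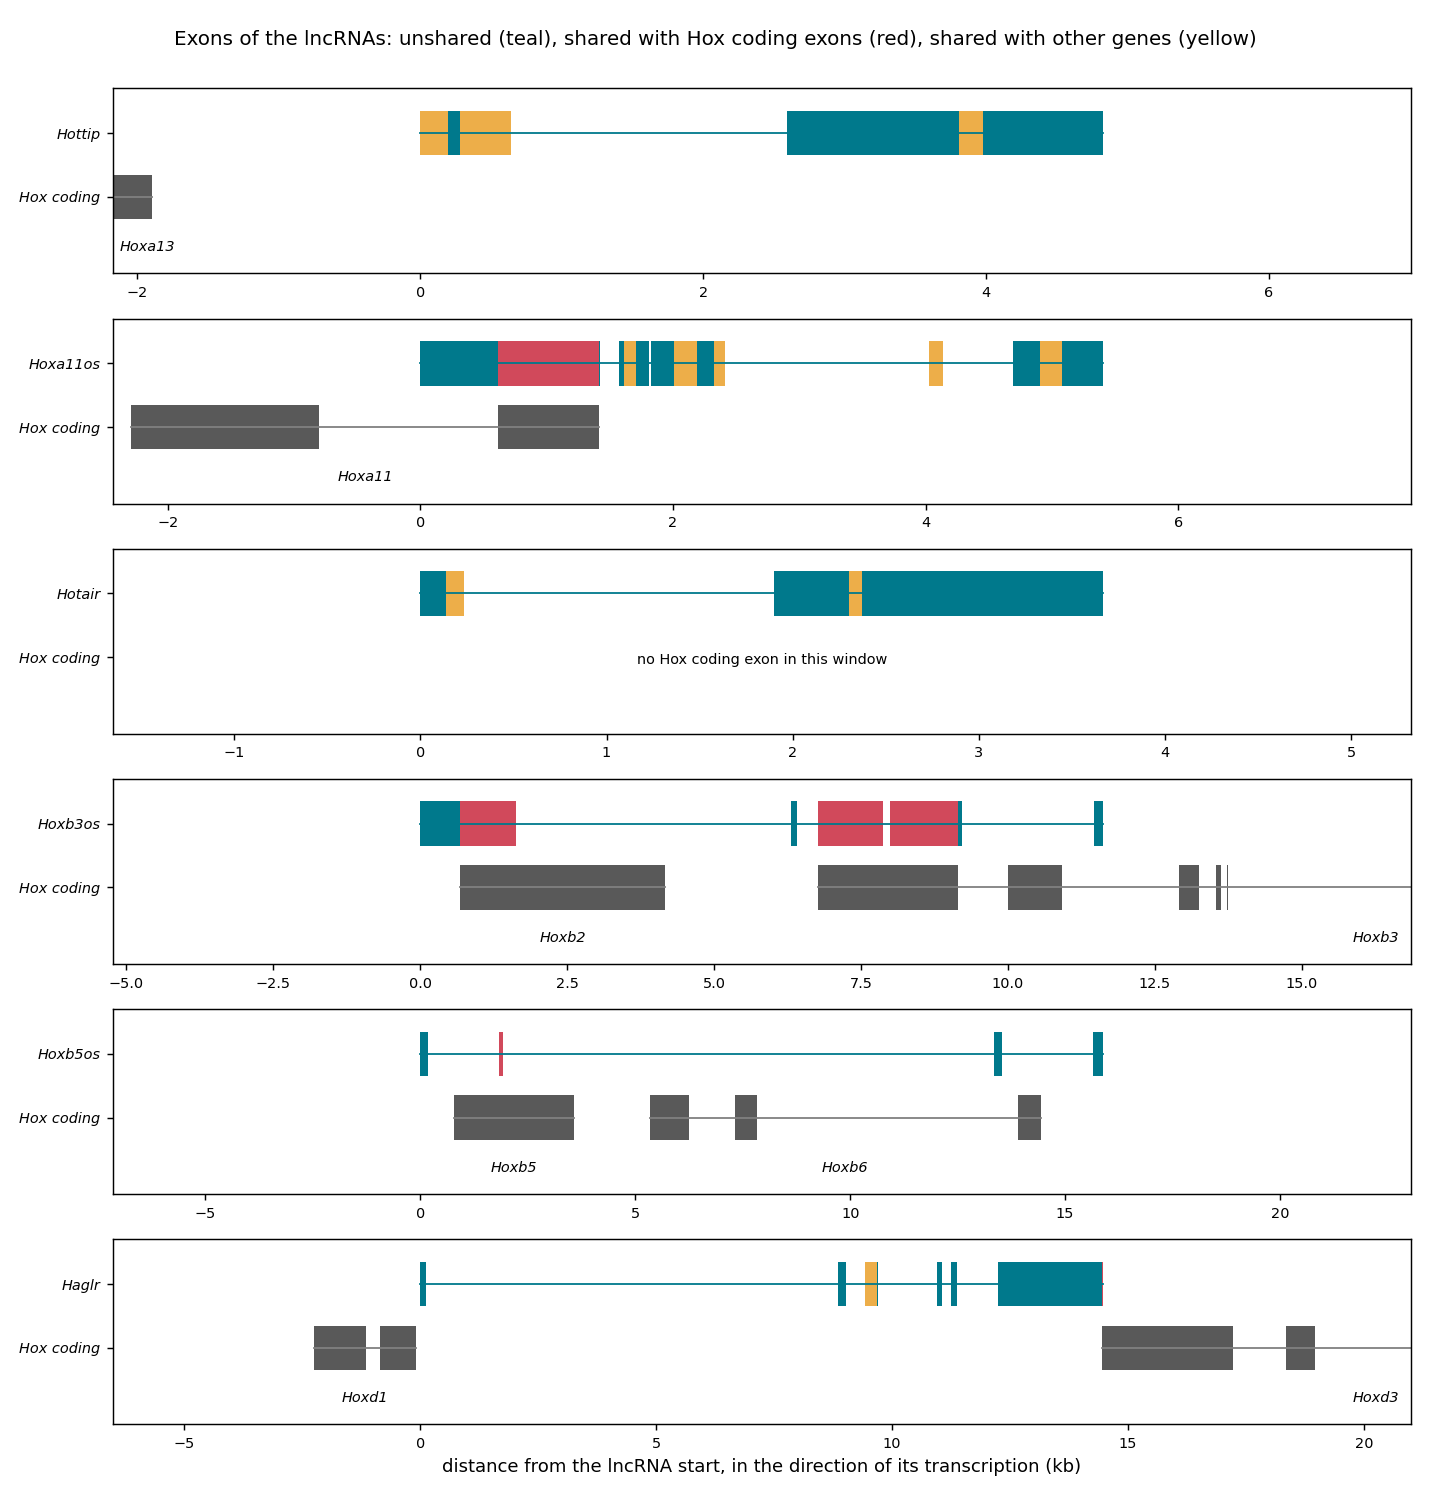
Exons of 6 of the 7 lncRNAs, all but Hotairm1, along the gene, in kb from the lncRNA's own start. Teal bases belong to no other gene, red bases are shared with exons of a Hox coding gene, yellow bases with another gene, and grey boxes are the exons of the neighbouring Hox coding genes. Hoxb3os is mostly red (76.2% of its exon bases), and Hottip and Hotair hold no red.

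Where a read falls on bases that belong to several genes, a counter may assign it to none. In these tables the 10 short genes annotated wholly inside exons of the lncRNAs had 0 counts over the 32 libraries, while 6 miscellaneous RNA genes of the clusters with no shared exon base had 3823. How many lncRNA reads on shared bases were counted was not tested, and since no strand was used, such a read could not be told apart from one of the opposite gene. The stretches below show an unshared exon and the edge of a shared stretch. Hoxb5os-202, the longer Hoxb5os transcript, is shown over its second exon (capitals, 180 bases, chr11:96293375-96293554), which lies inside the body of Hoxb6 but outside its exons, with 60 bases of the exon on either side. Hoxa11os-206 is shown where it enters an exon of Hoxa11 (chr6:52244936-52245085, 75 bases inside it in capitals). Both are written 5′ to 3′ on the lncRNA's strand, from the GENCODE transcripts of GRCm38.
Hoxb5os-202: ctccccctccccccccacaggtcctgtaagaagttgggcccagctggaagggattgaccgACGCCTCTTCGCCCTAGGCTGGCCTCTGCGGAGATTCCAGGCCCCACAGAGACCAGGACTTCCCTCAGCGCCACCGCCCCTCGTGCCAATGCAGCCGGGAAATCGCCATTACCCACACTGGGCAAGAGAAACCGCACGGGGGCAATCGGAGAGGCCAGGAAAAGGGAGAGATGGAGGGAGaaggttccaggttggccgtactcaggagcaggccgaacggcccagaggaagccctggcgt
Hoxa11os-206: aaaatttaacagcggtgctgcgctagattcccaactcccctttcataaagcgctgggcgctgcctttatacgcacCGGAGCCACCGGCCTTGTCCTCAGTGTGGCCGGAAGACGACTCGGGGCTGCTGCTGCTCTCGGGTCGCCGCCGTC

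Hoxb5os, an antisense transcript of the middle of the Hoxb cluster, rose in ENL mutants of the Six2 lineage in every comparison with ENL-WT, by 4.13-fold to 5.46-fold, and had the most counts of the 7 lncRNAs over all libraries, 113166. Among whole E18.5 kidneys the Six2-ENL-WT libraries were at 14.8 and 14.48 CPM, those of Six2-ENL-T1 at 59.3 and 61.8, and those of Six2-ENL-T3 at 66.3 and 63.5. Both mutants stood far above the controls, and the ranges of the mutants did not overlap either. The log2 fold changes against ENL-WT were 2.05 (SE 0.062, adjusted p = 1.07e-05, edgeR) for ENL-T1 and 2.15 (SE 0.0622, adjusted p = 1.08e-05) for ENL-T3, and the difference between the alleles, 0.10, missed the threshold (adjusted p = 0.757). In sorted tdT+ cells at E14.5 the level went from 23.6, 22.5 and 25.0 CPM in ENL-WT to 93.6, 99.3 and 97.5 CPM in ENL-T1. At E18.5 it went from 13.6, 13.1 and 13.6 CPM to 76.7, 72.5 and 69.8 CPM. Each mutant library was above every control of its stage, with log2 fold changes of 2.05 (SE 0.0574, adjusted p = 1.1e-06) and 2.45 (SE 0.076, adjusted p = 2.62e-10).

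Hoxb5 and Hoxb6, the coding genes that Hoxb5os spans, moved less. In sorted cells at E14.5 Hoxb5 measured 30.3, 31.3 and 28.7 CPM in ENL-WT and 31.5, 32.8 and 32.7 CPM in ENL-T1, a log2 difference of 0.12 (SE 0.0605, adjusted p = 0.27), while Hoxb5os rose. At E18.5 Hoxb5 rose as well, from 26.8, 26.9 and 32.7 CPM to 71.9, 75.6 and 65.2 CPM (log2 fold change 1.31, SE 0.0928, adjusted p = 3.64e-07). Hoxb6 went from 58.5, 54.2 and 56.3 CPM to 134, 136 and 123 CPM at E18.5 (log2 fold change 1.22, SE 0.0667, adjusted p = 3.61e-08). The lncRNA and its neighbour thus did not keep a fixed proportion.

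The proportion was measured within each library as the log2 ratio of Hoxb5os to Hoxb5 counts, which does not depend on the scaling of the library. In whole Six2 kidneys it was -0.02 ± 0.10 (SD, n = 2) in ENL-WT, 1.30 ± 0.03 in ENL-T1 and 0.99 ± 0.02 in ENL-T3. In sorted cells it went from -0.35 ± 0.14 to 1.58 ± 0.01 at E14.5 and from -1.09 ± 0.15 to 0.04 ± 0.09 at E18.5 (SD, n = 3 per group). The ranges of mutants and controls lay apart in each of these comparisons. With 3 libraries against 3, the two-sided exact permutation test cannot go below 0.1, and with 2 against 2 not below 0.333, so none of them could pass 0.05.

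**Figure D2:**
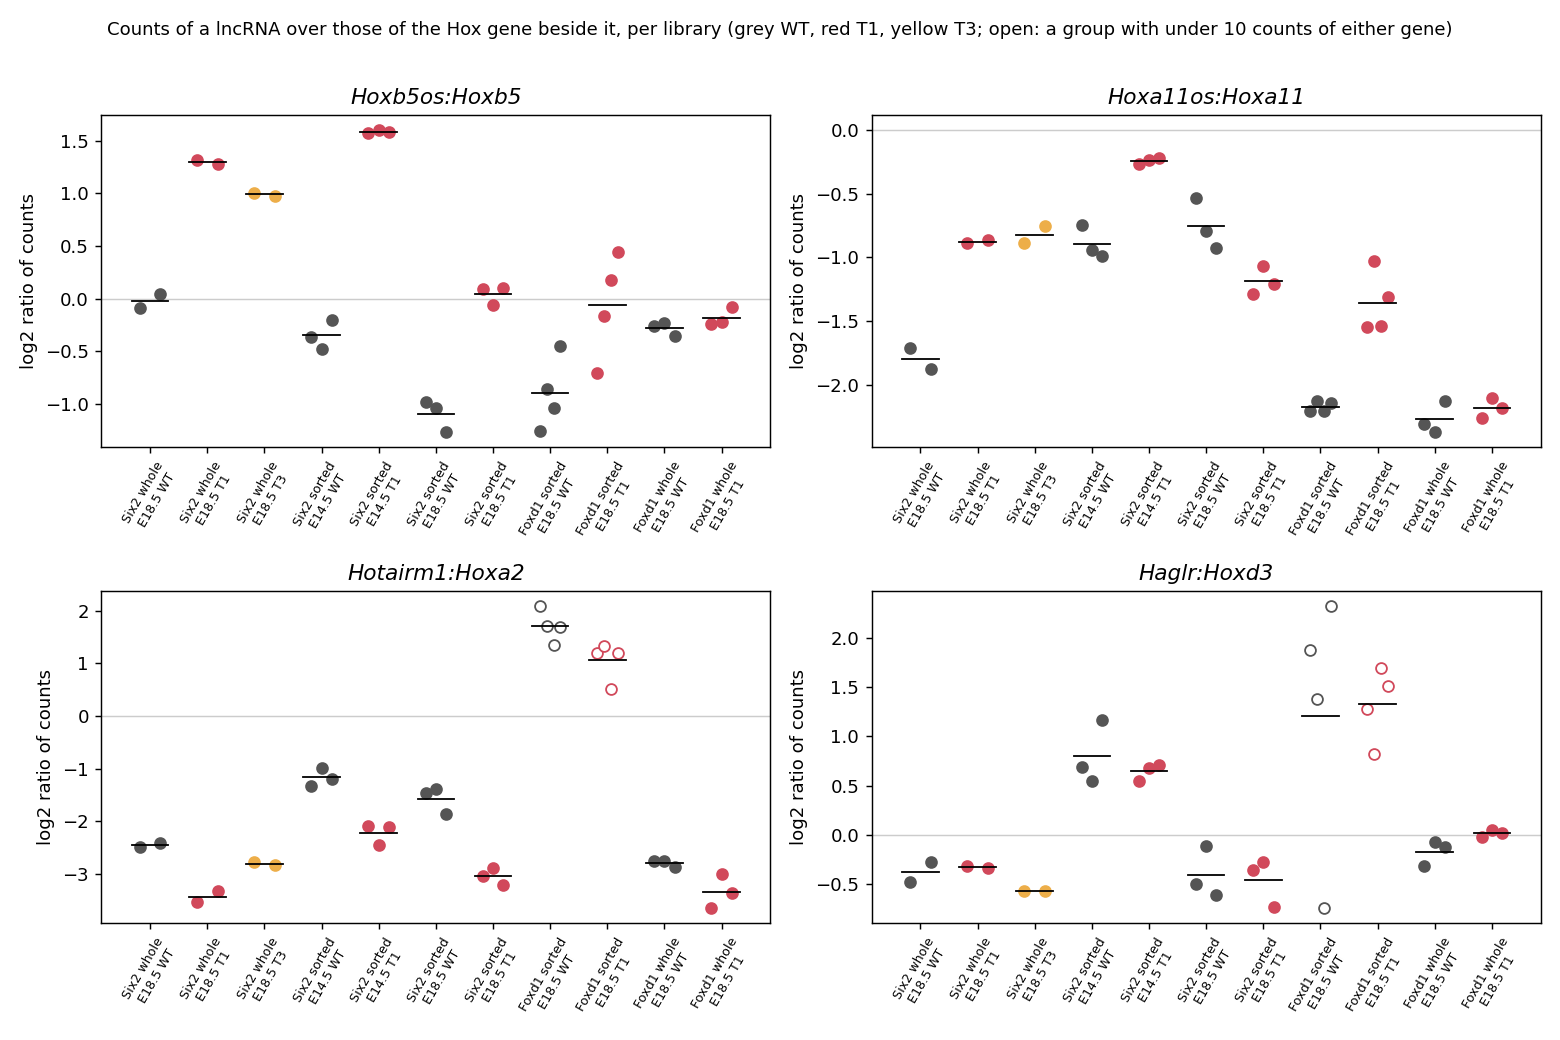
Log2 ratio of lncRNA counts to counts of a neighbouring Hox gene, a point per library and a line at the group mean, grey for ENL-WT, red for ENL-T1 and yellow for ENL-T3. Open points mark groups with fewer than 10 counts of either gene in a library. The ratio of Hoxb5os to Hoxb5 was higher in every Six2-ENL mutant library than in its controls, and the ratio of Hotairm1 to Hoxa2 was lower in sorted Six2-ENL-T1 cells at both stages.

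Hoxa11os, which is transcribed opposite to Hoxa11, was the only one of the 7 lncRNAs that rose in all 6 comparisons of a mutant with its own control, whole Foxd1 kidneys included. The whole Six2 kidneys measured 10.8 and 11.2 CPM with ENL-WT, 43.7 and 43.9 with ENL-T1, and 46.1 and 42.1 with ENL-T3. The mutants were 3.98-fold and 4.00-fold above the controls (log2 fold changes 1.99, SE 0.0747, adjusted p = 1.93e-05, and 2.00, SE 0.0747, adjusted p = 1.99e-05, edgeR), and their own ranges overlapped. In sorted tdT+ cells at E14.5 it went from 44.2, 43.9 and 40.1 CPM to 102, 102 and 101 CPM. At E18.5 it went from 12.1, 10.5 and 11.2 CPM to 69.5, 79.9 and 75.3 CPM. No mutant library came near a control of its stage, and the fold was 2.40 at E14.5 (log2 1.27, SE 0.0533, adjusted p = 1.14e-05) and 6.68 at E18.5 (log2 2.74, SE 0.089, adjusted p = 3.48e-10).

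In sorted Foxd1 tdT+ cells Hoxa11os measured 21.7, 20.5, 16.9 and 18.4 CPM in ENL-WT, from 42 to 78 counts per library, and 64.6, 85.1, 63.7 and 85.3 CPM in ENL-T1, from 175 to 264 counts. The ranges lay apart, and the log2 fold change was 1.93 (SE 0.129, adjusted p = 1.58e-08). In whole Foxd1 kidneys it went from 6.88, 6.00 and 7.55 CPM to 15.6, 15.6 and 14.2 CPM (log2 fold change 1.15, SE 0.1004, adjusted p = 2.14e-06). Hoxa11, which patterns the metanephric mesenchyme together with its paralogs, rose in all 6 comparisons too. Its log2 fold changes were 1.07 and 1.03 in whole Six2 kidneys (ENL-T1 and ENL-T3), 0.61 and 3.17 in sorted Six2 cells (E14.5 and E18.5), 1.10 in sorted Foxd1 cells and 1.07 in whole Foxd1 kidneys, with adjusted p from 5.84e-11 to 0.000553.

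The ratio of Hoxa11os to Hoxa11 did not move one way. Its log2 value was higher in ENL-T1 than in ENL-WT by 0.92 in whole Six2 kidneys and by 0.65 in sorted Six2 cells at E14.5, and lower by 0.44 at E18.5 (difference -0.44). In sorted Foxd1 cells it was -2.17 ± 0.04 in ENL-WT and -1.35 ± 0.24 in ENL-T1 (SD, n = 4 per group), a difference of 0.82 with the smallest p that 4 against 4 can give (two-sided exact permutation test, p = 0.0286, adjusted p = 0.276 over the 69 pairs and comparisons). In whole Foxd1 kidneys the difference was 0.08 and the ranges overlapped.

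Hoxb3os, which shares most of its exon bases with Hoxb3 and Hoxb2 and is known from kidney tubule cells, rose in 1 genotype comparison. In sorted Six2 cells at E18.5 it went from 3.52, 3.44 and 4.61 CPM in ENL-WT to 8.10, 6.87 and 6.35 CPM in ENL-T1 (1.85-fold, log2 0.89, SE 0.160, adjusted p = 0.00129, edgeR). At E14.5 it measured 1.85 to 2.01 CPM and 1.95 to 2.17 CPM, which overlap (adjusted p = 0.67). Whole Six2 kidneys were at 2.53 and 2.095 CPM with ENL-WT, 2.79 and 2.65 with ENL-T1, and 3.03 and 2.99 with ENL-T3, with adjusted p of 0.391 and 0.134. Hoxb3 rose in whole Six2 kidneys (log2 0.60 and 0.95, adjusted p = 0.000943 and 0.000113) and in sorted cells at E18.5 (log2 1.60, adjusted p = 1.19e-07), so at E18.5 the ratio of Hoxb3os to Hoxb3 counts went down, by a log2 difference of -0.72 in sorted cells with the ranges apart. Hoxb3os in whole Foxd1 kidneys was at 2.57, 2.09 and 3.08 CPM in ENL-WT and 1.78, 1.90 and 1.75 CPM in ENL-T1, a 1.42-fold difference that did not reach the fold threshold of 1.5 (log2 -0.51, adjusted p = 0.0441). Without ENL-WT replicate 2 it passed, at -0.64 (adjusted p = 0.0198).

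Hotair, transcribed between Hoxc12 and Hoxc11 and known for binding Polycomb repressive complex 2 and the histone demethylase LSD1, rose in whole Six2 kidneys and in sorted Six2 cells at E18.5. The whole kidneys were at 0.722 and 0.422 CPM with ENL-WT, 1.99 and 2.14 with ENL-T1, and 1.65 and 1.73 with ENL-T3. The controls differed from each other by more than the mutants of either allele, yet both stood below every mutant (log2 fold changes 1.86, SE 0.260, adjusted p = 0.00297, and 1.57, SE 0.261, adjusted p = 0.00567, edgeR). In sorted cells at E18.5 it went from 1.36, 2.00 and 2.14 CPM to 8.13, 6.20 and 6.83 CPM (log2 fold change 1.95, SE 0.191, adjusted p = 7.33e-06). At E14.5 the ENL-T1 libraries were at 1.57, 1.78 and 0.876 CPM against 0.928, 0.699 and 0.726 CPM in ENL-WT. The third mutant library lay among the controls, and the log2 difference of 0.86 missed the threshold (SE 0.297, adjusted p = 0.102). Without that library it was 1.11 (adjusted p = 0.0352).

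Hoxc11, the posterior Hoxc gene next to Hotair, rose in the same 3 comparisons and also at E14.5, where it went from 7.60, 9.07 and 8.96 CPM to 26.5, 28.3 and 26.4 CPM (log2 fold change 1.68, SE 0.0911, adjusted p = 3.56e-05). Among sorted Foxd1 cells Hotair was counted 0, 3, 0 and 0 times with ENL-WT and 6, 5, 0 and 3 times with ENL-T1, too few to test, while Hoxc11 rose there by a log2 fold change of 2.06 (adjusted p = 1.04e-06). Hotair in whole Foxd1 kidneys was at 0.421, 0.166 and 0.201 CPM in ENL-WT and 0.312, 0.332 and 0.166 CPM in ENL-T1. These ranges overlap, with a log2 difference of 0.04 (SE 0.482, adjusted p = 0.961), and Hoxc11 rose there by 0.70 (adjusted p = 0.000115).

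Hottip, at the 5′ end of the Hoxa cluster beside Hoxa13 and known for binding WDR5 of the MLL histone methyltransferase complexes, was the lowest of the 7 lncRNAs per length and was found mainly in the mutants. In sorted Six2 cells at E18.5 the ENL-WT libraries held 5, 2 and 13 counts of it (0.0632, 0.0255 and 0.185 CPM) and the ENL-T1 libraries 264, 135 and 117 (2.87, 1.69 and 1.56 CPM). The lowest mutant library was far above the highest control, and the fold was 22.8 (log2 4.51, SE 0.499, adjusted p = 2.28e-05, edgeR). Without ENL-WT replicate 3, the control with 13 counts, the log2 value was 5.48. Hottip met the count filter of this comparison through the ENL-T1 libraries, so that it could be tested depended on its high level there. At E14.5 it had 0 counts in all 3 ENL-WT libraries and 5, 13 and 3 in ENL-T1. The ENL-T1 mean was 2.33 times the floor of 3 counts per library (0.0234 CPM in the shallowest control library). The lowest ENL-T1 library, at 0.02155 CPM, was under that floor. Hottip was too low to be tested there, as in whole Six2 kidneys, where both ENL-WT libraries were at 0 counts, those of ENL-T1 at 1 and 5, and those of ENL-T3 at 4 and 1, means of at most 1.06 times the floor.

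The sorted Foxd1 cells held 0 counts of Hottip in 4 ENL-WT libraries and 6, 1, 2 and 3 counts in 4 ENL-T1 libraries, so both groups were at or under the floor of 1.21 CPM and no fold is given. In whole Foxd1 kidneys it had 0 counts in all 6 libraries. Hoxa13, whose start lies 1895 bases from that of Hottip, is a posterior gene that the normal kidney hardly expresses. It went from 0, 13 and 7 counts to 709, 414 and 540 counts in sorted Six2 cells at E18.5 (0, 0.166 and 0.0994 CPM against 7.71, 5.19 and 7.19 CPM) and from 17 and 20 counts to 1170 and 701 in whole Six2-ENL-T1 kidneys. Unlike Hottip, Hoxa13 could be tested in all 4 comparisons of a mutant with ENL-WT in the Six2 lineage, and rose in all of them, with log2 fold changes from 5.42 to 6.25. In the sorted cells of both stages Hoxa13 met the count filter through the ENL-T1 libraries. Whole Foxd1 kidneys held 16, 11 and 7 counts of Hoxa13 with ENL-WT and 11, 13 and 4 with ENL-T1, with overlapping ranges (adjusted p = 0.839).

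The 5′ end of Hottip is shown because it is the one that could be set beside a Hox start, as a RefSeq window of 300 bases (GRCm38.p6, chr6:52262525-52262824, plus strand) with the bases from the start on in capitals. RefSeq windows were found for 3 of the 7 lncRNAs. Haglr and Hoxd1 start 84 bases apart on opposite strands, and the 250 bases before the start of Hoxd1 (chr2:74762730-74762979, plus strand) hold the region between both starts, in capitals.
Hottip: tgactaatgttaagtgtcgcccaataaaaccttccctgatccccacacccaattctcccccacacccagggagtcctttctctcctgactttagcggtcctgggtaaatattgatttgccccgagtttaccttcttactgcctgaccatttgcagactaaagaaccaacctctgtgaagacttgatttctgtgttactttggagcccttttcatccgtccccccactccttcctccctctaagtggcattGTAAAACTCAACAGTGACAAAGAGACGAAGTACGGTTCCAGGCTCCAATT
Haglr and Hoxd1: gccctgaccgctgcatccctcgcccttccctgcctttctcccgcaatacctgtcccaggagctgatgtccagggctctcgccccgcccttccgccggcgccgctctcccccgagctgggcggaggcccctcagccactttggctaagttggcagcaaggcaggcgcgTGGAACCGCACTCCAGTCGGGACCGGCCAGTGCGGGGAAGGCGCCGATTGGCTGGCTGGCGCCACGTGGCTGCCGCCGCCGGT

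The windows differ in base composition. That of Hottip holds 6 CpG and 47.7% G and C, near the medians of 7 CpG and 52.7% over 32851 windows, while that of Hoxd1 holds 29 CpG and 69.7% and that of Hoxa13 holds 45 CpG and 81.0%. The letters TATAAA, or TTTATA for the other strand, are in none of these 3 windows and in 13.6% of all windows. The letters CCAAT or ATTGG, searched on both strands, occur 3 times in the Hottip window and once in each of the others, and 37.4% of all windows hold them. These counts describe the letters of the windows and say nothing of which factors bind there.

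Haglr, which shares its start region with Hoxd1, rose in sorted Six2 cells and fell in whole Foxd1 kidneys. At E14.5 it went from 2.56, 2.17 and 3.07 CPM in ENL-WT to 5.32, 5.69 and 5.51 CPM in ENL-T1 (log2 fold change 1.10, SE 0.149, adjusted p = 0.00248, edgeR). At E18.5 it went from 1.68, 1.72 and 1.87 CPM to 7.29, 6.79 and 4.69 CPM (log2 fold change 1.84, SE 0.190, adjusted p = 1.17e-05). The mutants were higher in 6 of 6 libraries. Haglr of whole Six2 kidneys was at 5.05 and 3.59 CPM with ENL-WT, 4.77 and 4.62 with ENL-T1, and 4.28 and 5.40 with ENL-T3, and both mutants overlapped the controls. In whole Foxd1 kidneys it went the other way, from 5.11, 4.15 and 5.64 CPM to 2.75, 3.68 and 2.72 CPM (log2 fold change -0.70, SE 0.162, adjusted p = 0.00486).

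Both Hoxd neighbours rose with it in sorted Six2 cells. Hoxd3 rose at E14.5 (log2 fold change 1.27, adjusted p = 0.000968) and E18.5 (1.84, adjusted p = 4.52e-06) and fell in whole Foxd1 kidneys (-0.90, adjusted p = 0.00114). Hoxd1 rose at both stages in sorted Six2 cells (0.88, adjusted p = 0.0297, and 1.49, adjusted p = 0.000179), and in whole Foxd1 kidneys its ranges overlapped. The log2 ratio of Haglr to Hoxd1 counts overlapped between groups in all 7 comparisons in which it could be formed. Among sorted Foxd1 cells Haglr was counted 5, 6, 1 and 7 times with ENL-WT and 8, 18, 14 and 18 times with ENL-T1. The ranges lay apart (0.403 to 2.53 CPM against 2.95 to 5.98 CPM), but the gene was under the count filter. Tested without the filter, the log2 fold change of Haglr was 1.64 (adjusted p = 0.00124).

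Hotairm1, transcribed from the 3′ end of the Hoxa cluster and named for its part in myeloid differentiation, passed the test in none of the 7 genotype comparisons. In sorted Six2 cells it measured 1.05, 1.28 and 0.971 CPM in ENL-WT and 0.888, 0.753 and 1.08 CPM in ENL-T1 at E14.5, and 1.34, 1.46 and 1.38 CPM against 1.84, 1.88 and 1.34 CPM at E18.5. The groups overlapped at both stages (adjusted p = 0.551 and 0.457, edgeR). Whole Six2 kidneys were at 0.530 and 0.514 CPM with ENL-WT, 0.382 and 0.458 with ENL-T1, and 0.878 and 0.832 with ENL-T3. The alleles stood on opposite sides of the controls, with a log2 difference between ENL-T3 and ENL-T1 of 1.03 (SE 0.241, adjusted p = 0.503 over 23931 genes). Hoxa2, the coding gene beside it, rose in sorted Six2 cells from 2.64, 2.54 and 2.22 CPM to 3.79, 4.17 and 4.68 CPM at E14.5 and from 3.70, 3.83 and 5.04 CPM to 15.1, 14.03 and 12.46 CPM at E18.5 (log2 fold changes 0.79 and 1.74, adjusted p = 0.00819 and 1.51e-06). The log2 ratio of Hotairm1 to Hoxa2 counts went from -1.17 ± 0.17 to -2.22 ± 0.21 at E14.5 and from -1.57 ± 0.26 to -3.05 ± 0.16 at E18.5 (SD, n = 3 per group), with the ranges apart. Hotairm1 in sorted Foxd1 cells was at 5.06 to 7.01 CPM in ENL-WT and 5.76 to 8.64 CPM in ENL-T1, from 14 to 26 counts per library, its highest levels in the series.

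**Figure D3:**
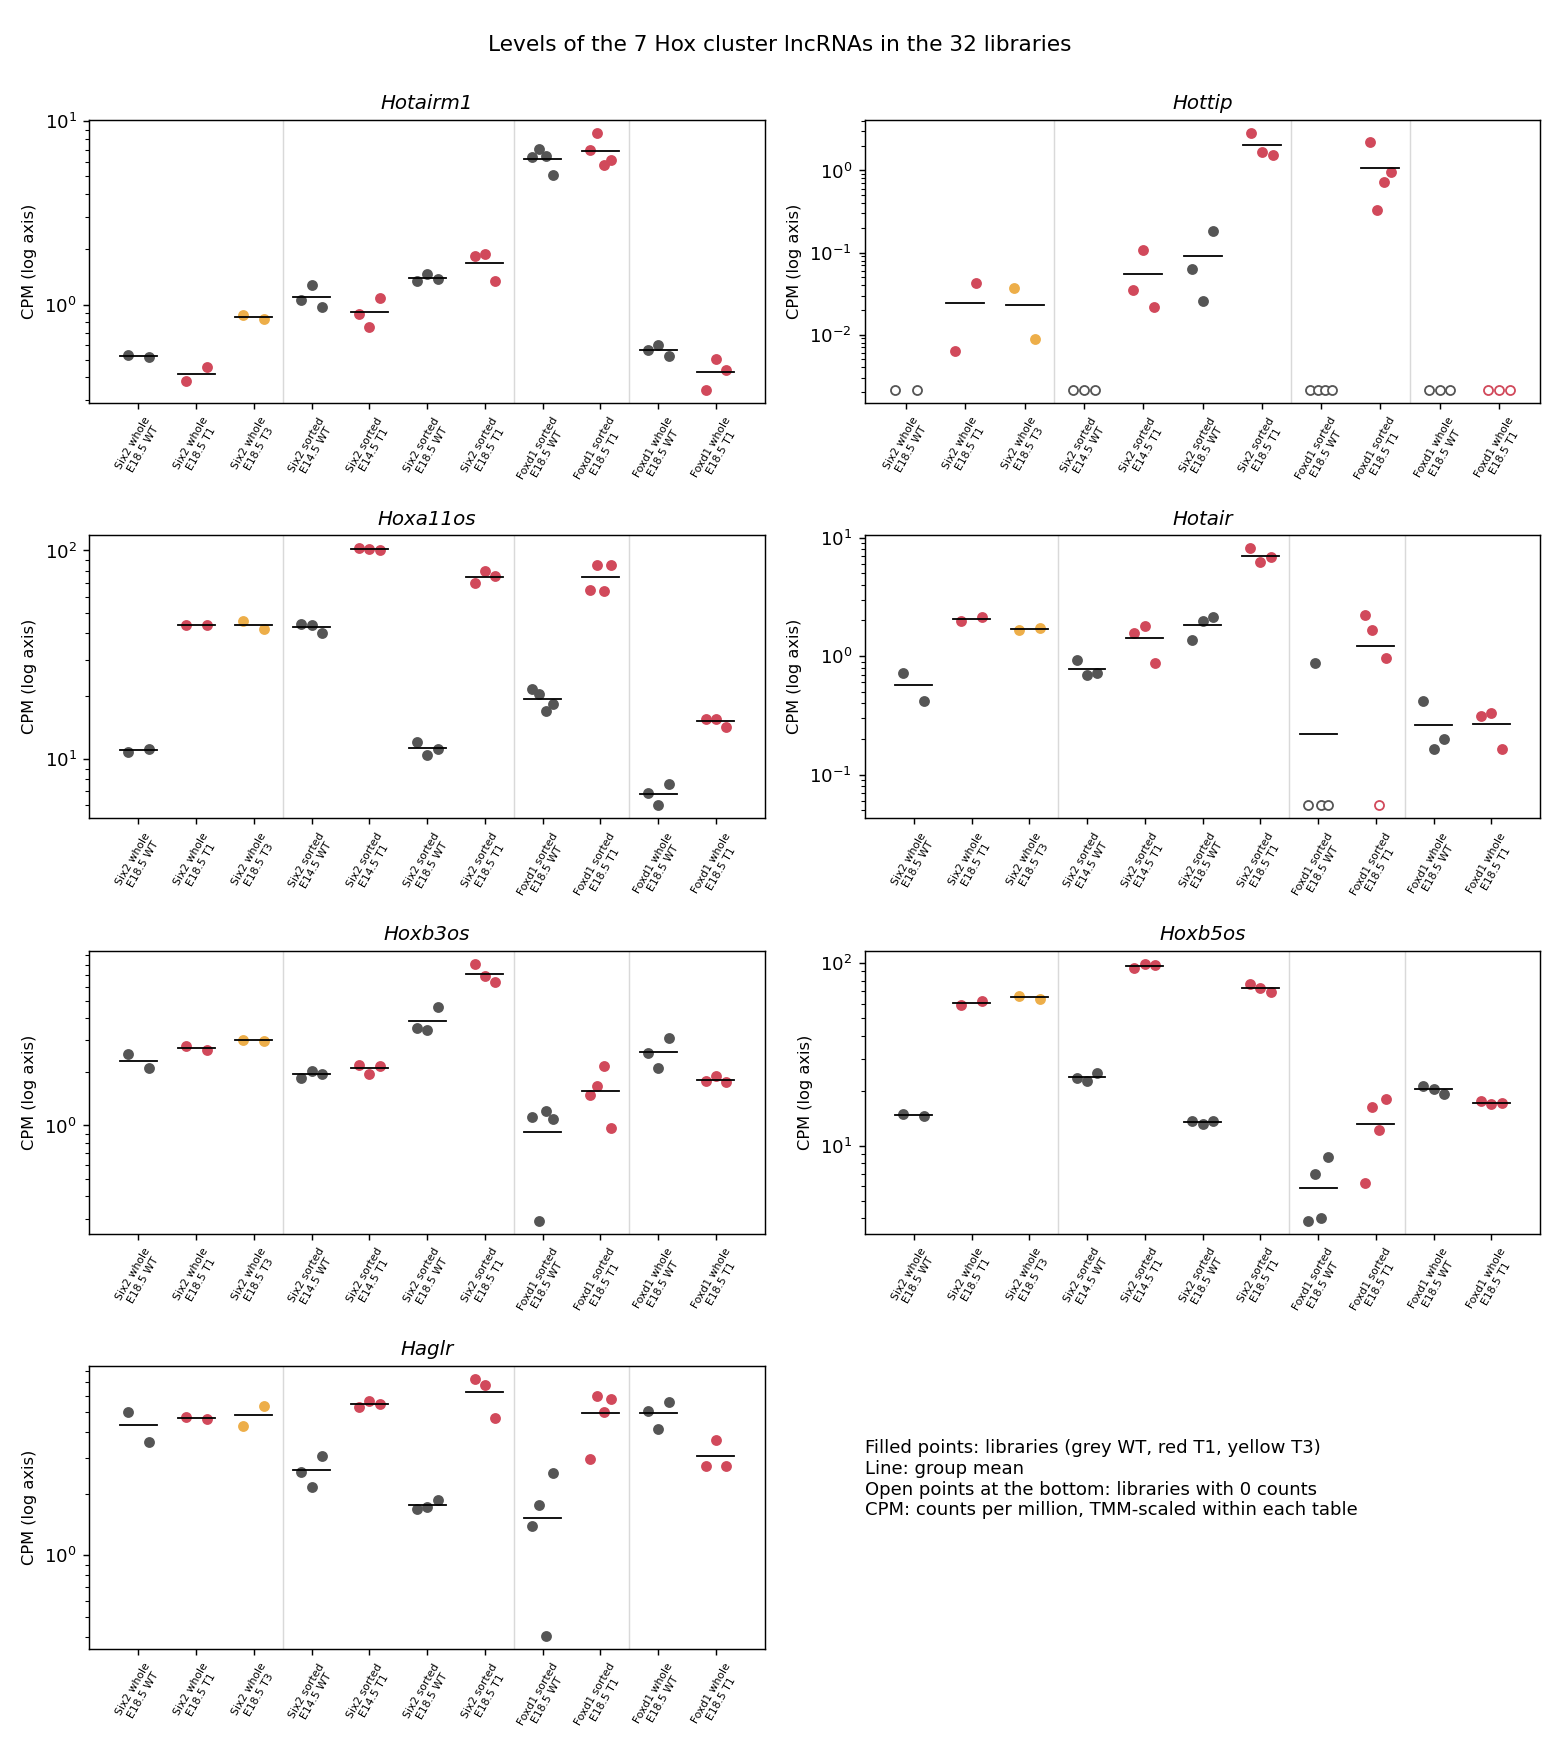
Level of each lncRNA in CPM (log axis) in the 11 groups, a point per library and a line at the group mean, grey for ENL-WT, red for ENL-T1 and yellow for ENL-T3, with libraries at 0 counts as open points at the bottom. Hoxa11os and Hoxb5os separate the mutants from their controls in the Six2 lineage in every experiment, and Hottip was at 0 in whole Foxd1 kidneys and in 4 of 5 control groups.

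Counted over the 7 genes, 6 were tested in whole Six2-ENL-T1 kidneys and 3 rose (Hoxa11os, Hoxb5os and Hotair), where 2.88% of all genes tested rose, 4.88% fell and 7.77% moved either way. The same 3 rose in Six2-ENL-T3 kidneys, where 4.34% of all genes rose, 5.28% fell and 9.62% moved either way, and none of the 7 fell in either. Between ENL-T3 and ENL-T1 none of the 6 passed, with edgeR or with DESeq2, and 1 of them, Hotairm1, had an unadjusted p under 0.05. Over all genes 0.00418% rose and 0% fell in that comparison, a single gene with edgeR and 75 with DESeq2, and 1720 genes had an unadjusted p under 0.05 with edgeR.

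In sorted Six2 cells at E14.5 3 of 6 rose (Hoxa11os, Hoxb5os and Haglr), where 4.11% of all genes rose, 2.28% fell and 6.4% moved either way. At E18.5 6 of 7 rose, all but Hotairm1, where 6.14% of all genes rose, 5.54% fell and 11.7% moved either way. Hottip, counted among the 6, met the count filter only through the ENL-T1 libraries in which it was high. Sorted Foxd1 cells had 2 of 3 that rose (Hoxa11os and Hoxb5os), where 3.63% of all genes rose, 2.18% fell and 5.81% moved either way. Whole Foxd1 kidneys had 1 of 6 that rose (Hoxa11os) and 1 that fell (Haglr), where 2.65% of all genes rose, 7.53% fell and 10.2% moved either way.

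The median log2 fold change of the tested lncRNAs was 1.05 and 1.14 in whole Six2 kidneys, 0.98 and 1.95 in sorted Six2 cells at E14.5 and E18.5, 1.18 in sorted Foxd1 cells and -0.32 in whole Foxd1 kidneys, where the median of all genes tested lay between -0.01 and 0.02. The value of 1.95 includes Hottip, which met the filter there through the ENL-T1 libraries. Of the 11 neighbouring Hox coding genes reported here 8 of 11 and 9 of 11 rose in whole Six2 kidneys, 6 of 10 and 10 of 10 tested in sorted Six2 cells, 2 of 5 in sorted Foxd1 cells, and 2 of 10 rose and 1 fell in whole Foxd1 kidneys. Of the 39 Hox coding genes 22 of 36 and 25 of 36 rose in whole Six2 kidneys, 24 of 35 and 34 of 35 in sorted Six2 cells, 16 of 28 in sorted Foxd1 cells, and 7 of 34 rose and 1 fell in whole Foxd1 kidneys. Both sets of counts include Hoxc12, beside Hotair, in whole Six2 kidneys. It had 0 counts in ENL-WT and means of 0.0742 CPM in ENL-T1 and 0.275 CPM in ENL-T3, so it met the filter through the mutants. In sorted Six2 cells they include Hoxa13, which met the filter through the ENL-T1 libraries. This was not examined for the Hox coding genes outside the 11 neighbours. Among those, Hoxd12 (log2 6.20) and Hoxa6 (3.35) rose in sorted Foxd1 cells.

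**Figure D4:**
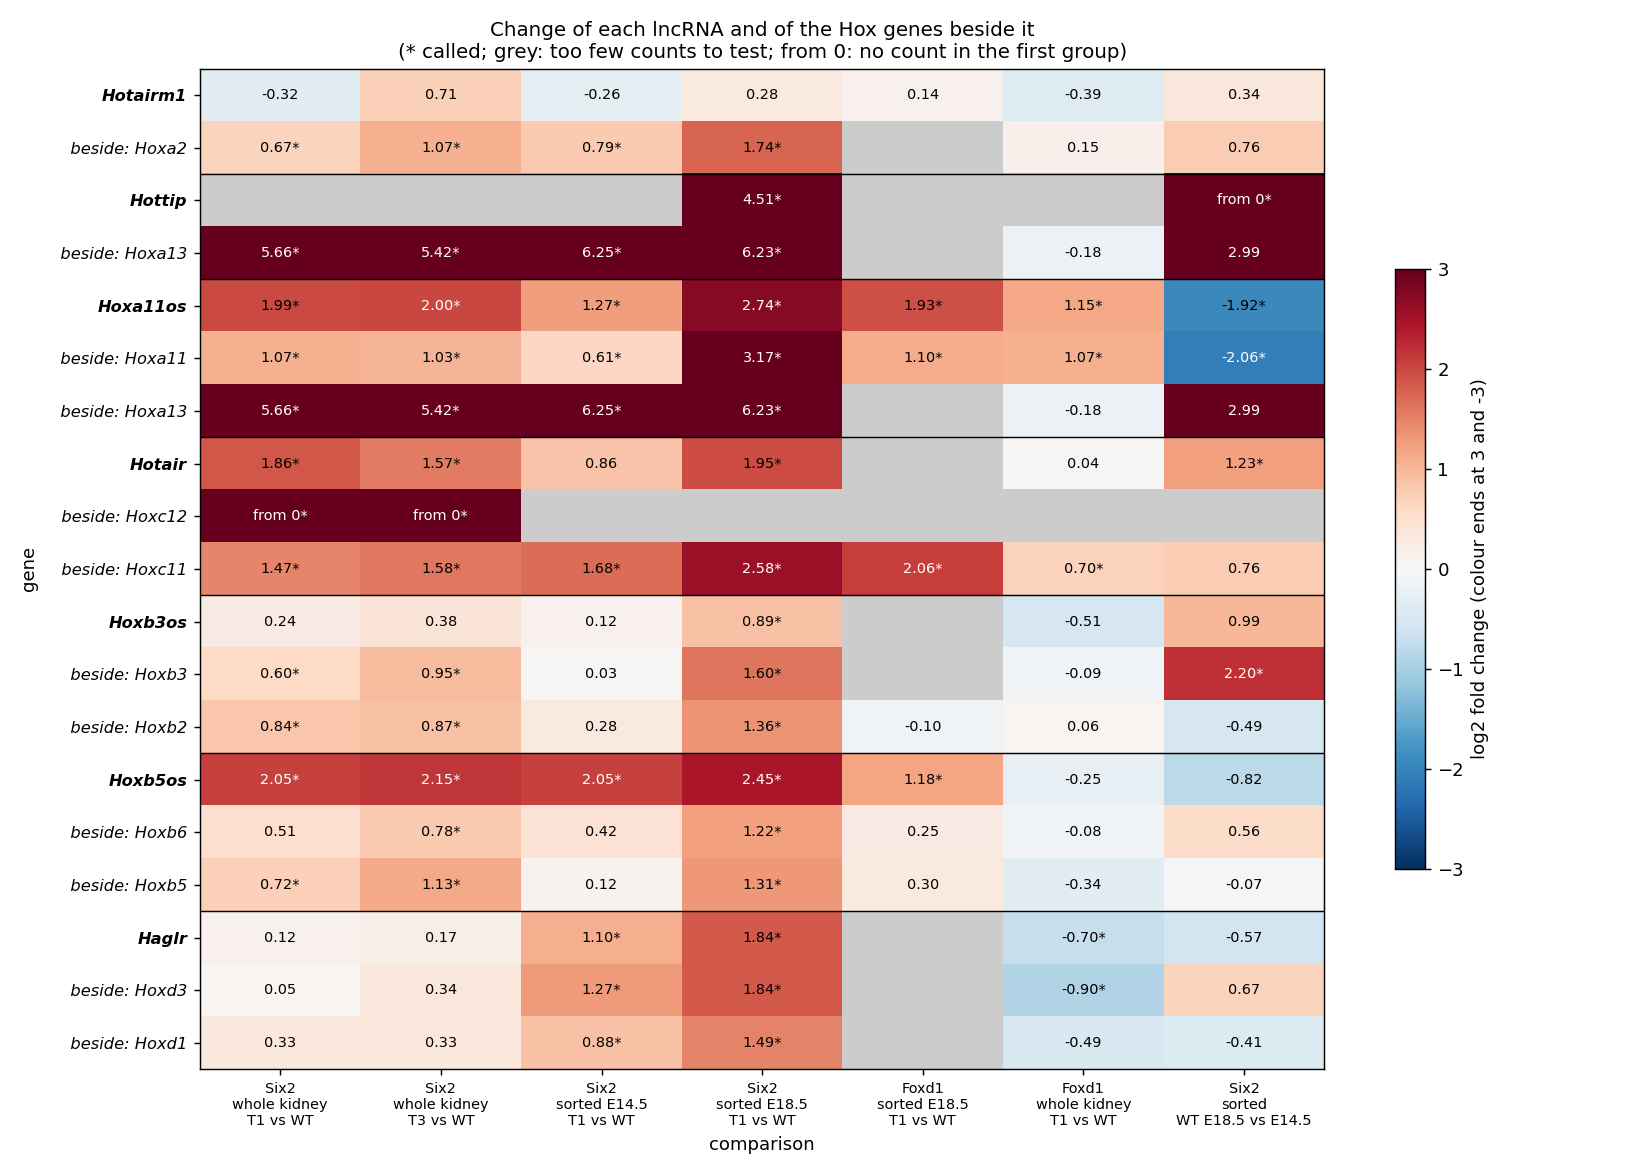
Log2 fold changes of the 7 lncRNAs and their neighbouring Hox coding genes in 7 comparisons between genotypes or stages, with an asterisk where the thresholds were passed. Grey cells could not be tested, and "from 0" marks a first group with no count, and Hottip met the count filter of the last column through ENL-T1 libraries outside that comparison. The column of sorted Six2 cells at E18.5 has the most calls, 6 of 7 lncRNAs and 10 of 10 neighbours tested. Among them Hottip and Hoxa13 met the count filter of that column through its ENL-T1 libraries.

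The whole Foxd1 kidneys were the experiment in which the lncRNAs parted. Hoxa11os rose there by 2.22-fold and Haglr fell, as given above, while Hoxb5os measured 21.3, 20.5 and 19.3 CPM in ENL-WT and 17.5, 16.9 and 17.0 CPM in ENL-T1. The ranges lay apart, but the 1.19-fold difference was under the fold threshold (log2 -0.25, SE 0.0685, adjusted p = 0.0136, edgeR). In these kidneys the summed nephron progenitor markers were at 278 to 295 CPM in ENL-WT and 421 to 528 CPM in ENL-T1, and the ureteric tree markers, from 6 genes all detected, at 510 to 686 CPM and 323 to 352 CPM. The ureteric markers did not move together, since the water channels Aqp2 (log2 -1.92) and Aqp3 (-0.68) fell, Ret (0.72) and Krt19 (0.69) rose, and the other 2 did not pass. The part of these shifts in the lncRNA levels was not tested. Hoxb5os was counted 14, 24, 10 and 24 times in sorted Foxd1 cells with ENL-WT and 17, 49, 34 and 56 times with ENL-T1 (3.89 to 8.68 CPM against 6.27 to 18.1 CPM). The first ENL-T1 library lay among the controls, and the log2 fold change was 1.18 (SE 0.306, adjusted p = 0.0171). The call was lost without ENL-T1 replicate 2 (1.07, adjusted p = 0.0717) or ENL-T1 replicate 4 (0.99, adjusted p = 0.0831).

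Levels between genes can be compared only per length, here as mean CPM per kb of exon that no other gene shares. On this scale Hoxb5os was the highest of the 7 in every group but sorted Foxd1 cells, at 24.6 in whole Six2-ENL-WT kidneys and 102 in Six2-ENL-T1, with Hoxa11os second at 6.85 and 27.2. In sorted Foxd1 cells Hoxa11os came first, at 12.04 in ENL-WT and 46.4 in ENL-T1, and Hotairm1 was second in ENL-WT at 10.7. Per kb of all exon bases the order in ENL-WT turned, with Hoxb5os first at 8.48, Hoxa11os at 6.31 and Hotairm1 at 6.08, while Hoxa11os stayed first in ENL-T1 at 24.3. Hottip was last in all 11 groups, and its highest mean was 0.948 per kb in sorted Six2-ENL-T1 cells at E18.5.

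The order of the groups, by mean CPM, differed between the lncRNAs. Hoxb5os and Hoxa11os were highest in sorted Six2-ENL-T1 cells at E14.5, with 96.8 ± 2.92 and 101.6 ± 0.928 CPM (SD, n = 3), and Hotair, Hoxb3os, Hottip and Haglr in the same cells at E18.5, with 7.06 ± 0.986, 7.11 ± 0.899, 2.04 ± 0.723 and 6.26 ± 1.38 CPM. Hoxb5os was lowest in sorted Foxd1-ENL-WT cells, at 5.90 ± 2.35 CPM (n = 4), and Hoxa11os in whole Foxd1-ENL-WT kidneys, at 6.81 ± 0.780 CPM (n = 3). Of the 10 pairs of groups next to each other in this order, 2 overlapped for Hoxb5os, 4 for Hoxa11os, 6 for Hotairm1, 7 for Hoxb3os, 8 each for Hottip and Hotair, and 9 for Haglr. The groups came from 4 tables normalized separately and from library kits that differ between whole kidneys and sorted cells, so only groups of the same table share a scale.

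Normal development was followed from E14.5 to E18.5 in sorted Six2-ENL-WT cells. Over these stages 24.8% of all genes rose and 20.6% fell, 45.5% in all, at an adjusted p under 0.01 and a fold over 2, and of the 7 lncRNAs Hotair rose and Hoxa11os fell. Hoxa11os went from 44.2, 43.9 and 40.1 CPM to 12.1, 10.5 and 11.2 CPM (log2 fold change -1.92, SE 0.0720, adjusted p = 8.97e-12, edgeR), next to Hoxa11 at -2.06. Hotair went from 0.928, 0.699 and 0.726 CPM to 1.36, 2.00 and 2.14 CPM (log2 fold change 1.23, SE 0.266, adjusted p = 0.000825). Hottip went from 0 counts in 3 libraries to 5, 2 and 13 counts. The E18.5 mean was 3.89 times the floor of 3 counts in the shallowest E14.5 library, but it includes a library with only 2 counts. Hottip met the count filter through the ENL-T1 libraries that share the fit, so its call in this comparison is not counted here. Hoxb5os (log2 -0.82), Haglr (-0.57), Hoxb3os (0.99) and Hotairm1 (0.34) did not pass both thresholds, and the values of Hoxb3os, from 1.85–2.01 to 3.44–4.61 CPM, lay just under the fold of 2, at 1.99. Hoxb3os passed it, at log2 values of 1.01 to 1.11, in 6 of 12 fits that left out 1 library (ENL-WT replicate 2 of E14.5, or ENL-WT replicates 1 and 2 and ENL-T1 replicates 1, 2 and 3 of E18.5). The stages were also dissociated with different enzymes, trypsin at E14.5 and collagenase II at E18.5, so stage and enzyme cannot be told apart. In the same libraries the nephron progenitor markers went from 1654–1945 to 447–584 CPM and the differentiated nephron markers from 9.64–15.1 to 2539–3021 CPM, and their part in these changes was not tested.

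The effect of ENL-T1 itself differed between the stages for 3 of the 7 lncRNAs, all larger at E18.5, where 3.94% of all genes had a larger and 4.22% a smaller log2 fold change, 8.16% in all, at an adjusted p under 0.05. The difference in log2 fold change between the stages was 1.48 for Hoxa11os (SE 0.098, adjusted p = 7.78e-07, edgeR interaction term), 0.77 for Hoxb3os (SE 0.221, adjusted p = 0.0459) and 0.41 for Hoxb5os (SE 0.0845, adjusted p = 0.00854). The Hoxa11os level of the controls fell with stage, as given above, and that of the mutants went from 101–102 to 69.5–79.9 CPM. The Hoxb3os call was lost in 11 of 12 fits that left out 1 library (adjusted p up to 0.158), with size factors by relative log expression (RLE) and with no count filter. The Hoxb5os call was lost without ENL-T1 replicate 1 of E18.5 (0.32, adjusted p = 0.0522) or ENL-WT replicate 2 of E18.5 (0.34, adjusted p = 0.0502). Of 10 neighbours tested 7 differed, all larger at E18.5, led by Hoxa11 at 2.57. Hottip had no count in the E14.5 controls, and its stage difference is not read. The marker lists moved with stage and, at E18.5, with genotype, as given above. At E14.5 the nephron progenitor markers went from 1654–1945 CPM in ENL-WT to 846–1045 CPM in ENL-T1, with 5 of 6 called lower. The stromal markers went from 358–499 to 773–1663 CPM, with 5 of 6 called higher and 1 lower. The part of these shifts in the stage difference was not tested.

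Between lineages the effect of ENL-T1 at E18.5 in sorted cells was smaller in Foxd1 than in Six2 cells for 2 of the 3 lncRNAs that met the count filter in both lineages, where 8.25% of all genes had a larger and 7.63% a smaller effect in Foxd1 cells, 15.9% in all. The difference in log2 fold change was -0.82 for Hoxa11os (SE 0.163, adjusted p = 0.0011) and -1.28 for Hoxb5os (SE 0.317, adjusted p = 0.00745). For Hotairm1 it was -0.16 (SE 0.318, adjusted p = 0.803). Hotair, Hoxb3os and Haglr met the filter through the Six2 libraries alone, with SE of 1.10, 0.546 and 0.467 for the difference, so whether their effects differed could not be told at this depth. The sequencing runs, read lengths and depths of both lineages also differed. The sorted Foxd1 counts hold 55471 gene identifiers, those of sorted Six2 cells 54752. Lineage cannot be told apart from these differences. Of the 5 neighbours that met the filter in both lineages 4 had a smaller effect in Foxd1 cells, Hoxa11 at -2.09, Hoxb2 at -1.48, Hoxb5 at -1.02 and Hoxb6 at -0.99, and Hoxc11 was at -0.53 (adjusted p = 0.131).

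The protein partners known for Hottip and Hotair, 10 genes of the MLL core, Polycomb repressive complex 2 and the LSD1 complex (Wdr5, Kmt2a, Rbbp5, Ash2l, Dpy30, Ezh2, Suz12, Eed, Kdm1a and Rcor1), were all tested, and 0 of 10 passed in any of the 7 genotype comparisons with edgeR or DESeq2, where 5.81% to 11.7% of all genes passed either way, or 0.00418% between ENL-T3 and ENL-T1. At an unadjusted p under 0.05 (edgeR) there were 0 to 6 of 10 in a comparison. The 6 were in whole Foxd1 kidneys, where 8666 of the 20145 genes tested were under it too. In sorted Six2 cells at E14.5 there were 4 of 10, where 5850 of 22387 genes were. Their median log2 fold change lay between -0.07 and 0.13. The ENL-T1 effect differed between stages for Kdm1a (0.36, adjusted p = 0.0105) and Ash2l (0.27, adjusted p = 0.021, lost with RLE size factors at 0.0512 and with no filter at 0.172), 2 of 10 where 8.16% of all genes differed. From E14.5 to E18.5 in sorted Six2-ENL-WT cells 4 of 10 passed, near the 45.5% of all genes. Kmt2a, the MLL methyltransferase, rose by 3.06 on the log2 scale, and the MLL core subunits Dpy30 (log2 -2.09) and Ash2l (-1.43) and the demethylase gene Kdm1a (-1.05, and -0.92 with DESeq2, under the fold of 2) fell.

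The Hox clusters hold 37 other annotated noncoding genes besides the 7. Many are short miscellaneous RNA or microRNA genes, a processed pseudogene is among them, and several share exon bases with other genes, so they are not all separate lncRNAs. Of the 37, 12 of 22 tested rose in whole Six2-ENL-T1 kidneys and 12 of 22 in Six2-ENL-T3, 6 of 17 in sorted Six2 cells at E14.5, 18 of 23 at E18.5, 3 of 6 in sorted Foxd1 cells, and 1 of 16 rose and 3 fell in whole Foxd1 kidneys. Over all genes the share that rose was 2.88%, 4.34%, 4.11%, 6.14%, 3.63% and 2.65% in that order, and 7.53% fell in whole Foxd1 kidneys. Hoxaas3, an antisense transcript of the Hoxa cluster, rose in all 6 comparisons of a mutant with its control, by log2 fold changes of 1.498, 1.65, 1.18, 2.47, 2.39 and 0.91 in the same order. Hoxaas2 rose in the first 5. The gene 9530018H14Rik of the Hoxa cluster, which shares no exon base with another gene, rose by 5.76 and 5.10 in whole Six2 kidneys, 3.11 in sorted Six2 cells at E14.5 (adjusted p = 0.0408) and 5.60 at E18.5. It held 2557 counts over all libraries. Whether this gene or others of the 37 met the count filter only through mutants in which they were high was not examined. The counts of genes tested and risen may depend on it. Gm53 of the Hoxb cluster rose in the 4 comparisons of the Six2 lineage, by 0.74, 1.12, 0.92 and 1.99, and Hoxd3os1 rose in 4. Gm11536 of the Hoxb cluster and Gm14396 of the Hoxd cluster rose in sorted Six2 cells at E18.5 (1.84 and 2.40) and fell in whole Foxd1 kidneys (-0.87 and -0.85), as Haglr did. Hoxd3os1 shares 12.1% of its exon bases with other genes and Gm14396 21.5%, while Gm53 and Gm11536 share none. Gm27454, which rose in 3 comparisons, has 55.4% of its exon bases inside exons of Hoxa11os.

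The genes whose levels ran most like those of each lncRNA over the 11 group means, out of 23528 genes with a mean of at least 0.1 CPM, were named by the smallest root mean square difference of centred log2 CPM. For Hoxa11os they were Gabrb2, D030068K23Rik and Hoxc10 (0.56, 0.57 and 0.59), for Hoxb5os G6pc2, E330013P04Rik and Sbspon (0.55, 0.57 and 0.59), and for Hoxb3os Gm17354, Cacna2d1 and Hoxc5 (0.23, 0.25 and 0.25). Hoxa11os and Hoxb3os thus had a Hox coding gene among their 3 closest. For Hottip they were the chemokine genes Ccl7 and Ccl2 with Bcl2a1d (0.73, 0.86 and 0.86), for Hotair Irf4, Gm45194 and Abi3bp (0.33, 0.55 and 0.60), for Haglr Acot11, Rab38 and Lgi3 (0.36, 0.39 and 0.40), and for Hotairm1 Gm6185, 9430031K09Rik and Il4i1 (0.26, 0.31 and 0.31). Ccl7, Ccl2, Bcl2a1d and Irf4 are known from myeloid and lymphoid cells, and the summed macrophage markers were at 7.13 to 77.4 CPM in ENL-WT and 30.8 to 66.9 CPM in ENL-T1 in sorted Six2 cells at E14.5, at 77.0 to 191 CPM and 197 to 275 CPM in sorted Foxd1 cells, and at 86.0 to 88.7 CPM and 114 to 127 CPM in whole Six2 kidneys. Their part in the levels of Hottip and Hotair was not tested. The group means come from 4 tables with different kits and depths, so these are descriptions with no test. A prior count of 2 was added before taking logs, so 0 counts gave a higher value in the shallow sorted Foxd1 libraries than in deeper ones. This enters the likeness of Hottip, at 0 counts in sorted Foxd1-ENL-WT cells, and of Hotair, at 0 to 3 counts per library there. How far their closest genes reflect depth was not tested.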

How the data were processed

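RNA-seq was analysed for 32 libraries. Per the labels and the study's methods, polyA RNA was prepared with KAPA Stranded mRNA-Seq (whole kidneys) or SMART-Seq v4, a low-input method (sorted tdT+ cells), reads were aligned to mm10 with HISAT2, and the deposited values are raw counts per gene made by HTSeq with no strand and no minimum quality. The annotation release and the rule for reads on several genes were not given in the sources used here. Of 55806 identifiers 55450 had a name in GENCODE vM21, from which the exons were taken. The sorted Foxd1 counts hold 55471 identifiers and each of the other sets 54752, so they were not all made on the same gene list. All samples were grouped by the labels, and no libraries of a group agreed within sampling noise (chi-square per degree of freedom at least 1.36), so none was counted as a copy.

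Genes were kept with edgeR's filterByExpr (minimum count 10, minimum total 15), scaled by TMM, and tested with edgeR 4.0.16 (R 4.3.3) by the quasi-likelihood test, with Benjamini-Hochberg adjustment over all genes tested. CPM values use the TMM library sizes. A genotype difference was called at an adjusted p under 0.05 and a fold over 1.5, a developmental one under 0.01 and over 2, and an interaction under 0.05. The 3 whole Six2 groups shared a fit, as did the 12 sorted Six2 libraries for stage and the 14 sorted E18.5 libraries for lineage. DESeq2 1.42.0 (Wald test), edgeR's exact test, RLE and library-size scaling, no filter, a replicate block and leaving out each library were alternatives. Replicate numbers were not taken as pairs: deviations of same-numbered libraries correlated by -0.08 to 0.14. In counts simulated on the E18.5 sorted Six2 libraries (22685 genes), 62.6% of 2-fold and 89.5% of 4-fold changes were recovered. Recovery was lowest for development, 26.3% and 56.6%, and highest for sorted Foxd1 cells, 85.6% and 100%. It was 47.6% and 66.7% for the stage difference, and 50.9% and 86.5% between ENL-T3 and ENL-T1. Figures were drawn with matplotlib 3.10.9.

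The text names the 7 lncRNAs, the nearest Hox coding gene on either side (1 of them is not reported here), at most 8 other noncoding cluster genes by the number of comparisons called, and the 3 most alike genes. The members and lists were chosen with earlier results of these data known. Nothing states that the libraries of a group are separate animals, so p-values measure the spread between these libraries only. Counts of 0 were read against a floor of 3 counts per library, which covers counting error only.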

Additional observations from a re-analysis of the deposited data

Results flagged for a closer look

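In sorted Foxd1-ENL-WT cells 1 of the 4 libraries stood apart for Hotair and for Hoxb3os. It was library 2 in both. Hotair was at 0.877 CPM there, which is 3 counts, and at 0 in the other libraries, and Hoxb3os was at 0.292 CPM, which is 1 count, against 1.08 to 1.21 CPM, which is 3 or 4 counts. With 3 libraries at 0, any count in the fourth stands apart by this measure, and 3 counts is the floor used here. Chance flags about 1 in 20 groups of measured levels, a rate that does not apply to counts this low.

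The effect of ENL-T1 differed between E14.5 and E18.5 in sorted Six2 cells by 1.48 on the log2 scale for Hoxa11os, 0.77 for Hoxb3os and 0.41 for Hoxb5os, each larger at E18.5. The Hoxb3os call was lost in 11 of 12 fits without 1 library, with RLE size factors, with no count filter and with the replicate block (adjusted p = 0.0811), and the Hoxb5os call in 2 of 12. It differed between sorted Foxd1 and Six2 cells at E18.5 by -0.82 for Hoxa11os and -1.28 for Hoxb5os, each smaller in Foxd1 cells. These are the interaction terms of the edgeR fit.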

How the results depend on the processing

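The counts of lncRNAs called kept within 1.5 times of the reported ones under 66 of 70 settings other than leaving out a library. With no filter on low counts 4 lncRNAs passed in sorted Foxd1 cells, with Hottip and Haglr added, and with no fold threshold 4 passed in whole Foxd1 kidneys and 5 from E14.5 to E18.5, where the counts here include Hottip. With DESeq2 5 differed in their ENL-T1 effect between stages, with Hotair (1.06, adjusted p = 0.0392) and Haglr (0.72, adjusted p = 0.0493) added. The cause of these differences was not tested. Leaving out 1 library gave 1 to 3 lncRNAs in sorted Foxd1 cells, 2 to 3 in whole Foxd1 kidneys, 3 to 4 at E14.5 and in development, and 1 to 3 for the stage difference, and changed no other count. In whole Six2 kidneys this leaves 1 library in a group, which is then assumed to vary like the other groups.

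With 1 library left out, 17 fits turned the sign in 8 results, none of which had passed the test and none larger than 0.33 on the log2 scale. The ranges were -0.06 to 0.07 for Hoxa11os and -0.14 to 0.20 for Haglr between ENL-T3 and ENL-T1, -0.08 to 0.39 and -0.04 to 0.43 for Haglr in whole Six2 kidneys (ENL-T1, then ENL-T3), -0.20 to 0.55 for Hotair in whole Foxd1 kidneys, and -0.19 to 6.75 for Hotair, -0.47 to 0.05 for Hoxb3os and -0.44 to 0.11 for Haglr between lineages.

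With replicate numbers as a block, 1 call changed, that of Hoxb3os between stages (0.78, adjusted p = 0.0811), which was also lost with RLE size factors (0.74, adjusted p = 0.0554) and with no filter (0.72, adjusted p = 0.121). The median of all genes in development moved to 0.148 with DESeq2 and the Hoxb3os change to 1.12, past the threshold (adjusted p = 1.63e-11). Of the genes whose ENL-T1 effect differed between stages 48.3% were larger at E18.5, and 37.3% to 59% under other scalings and filters, and between lineages 51.9%, or 37.6% with library size alone. Between ENL-T3 and ENL-T1 the edgeR exact test called 89 genes, DESeq2 75, the unfiltered fit 300 and a fit of those groups alone 14, against 1 as reported, and leaving out 1 library gave 0 to 16. The count of all genes in whole Six2-ENL-T1 kidneys, 1859, was 1163 or 1207 without ENL-T1 replicate 1 or 2, and that of the stage difference, 2059, was 1327 without ENL-WT replicate 2 of E18.5. In sorted Foxd1 cells the depth, at which 3 counts are 0.833 to 1.21 CPM, limited what could be tested.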
